A study of Homo sapiens with 12 samples.

Results

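The SOSS genes INTS3, NABP1, NABP2 and INIP were taken from the count tables by an exact match of the gene symbol, and all 4 were found among the 60583 genes listed. SOSS (sensor of single-stranded DNA) is a trimer in which INTS3, also called SOSS-A, holds 1 of 2 closely related binding proteins, NABP1 (hSSB2, SOSS-B2) or NABP2 (hSSB1, SOSS-B1), together with the small subunit INIP (SOSS-C). The NABP proteins bind single-stranded DNA through an OB fold, and the trimer is known for its part in signalling and end resection at DNA breaks. INTS3 is at the same time a subunit of Integrator, the complex that binds RNA polymerase II and cuts nascent RNA, so that SOSS ties Integrator to single-stranded DNA.

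The assay was TT-seq: RNA made while cells take up 4-thiouridine is fragmented, captured and sequenced. There were 12 libraries, 3 for each of 4 groups. U2OS cells, from a human osteosarcoma, received either control siRNA (siCtrl) or siRNA against INTS11 (siINTS11), and no drug is named for these cells. U2OS-AsiSI is U2OS with a transgene for AsiSI, a restriction nuclease, joined to an oestrogen receptor domain (AsiSI-ER), and received the same siRNAs and in both arms OHT (hydroxytamoxifen) for 1 hour, so line, nuclease and OHT differ together between the lines. All cells were taken 48 hours after transfection. The study concerned how Integrator bears on elongation by RNA polymerase II, and whether its U2OS-AsiSI cells came from 1 clone is not given in the sources used here.

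Each member was a single protein-coding gene in the tables (GRCh38). INTS3 (ENSG00000143624) spans chr1:153728050-153774808 on the plus strand, 46759 bp, NABP1 (ENSG00000173559) chr2:191678068-191696664 on the plus strand, 18597 bp, NABP2 (ENSG00000139579) chr12:56222015-56229854 on the plus strand, 7840 bp, and INIP (ENSG00000148153) chr9:112683926-112718149 on the minus strand, 34224 bp. Reads were counted over these whole spans, introns included. Their start regions are shown because transcription of these genes is what was measured. Of the 4 members, 3 had an entry in the RefSeq table of promoters (GRCh38.p14, 250 bases before to 50 after the start). The lines below give, 5′ to 3′ on the plus strand, the part of each window that precedes the RefSeq start and lies outside the gene's annotated exons, with CCAAT (or ATTGG) and GGGCGG (or CCGCCC) in capitals.
NABP1, chr2:191677886-191678067: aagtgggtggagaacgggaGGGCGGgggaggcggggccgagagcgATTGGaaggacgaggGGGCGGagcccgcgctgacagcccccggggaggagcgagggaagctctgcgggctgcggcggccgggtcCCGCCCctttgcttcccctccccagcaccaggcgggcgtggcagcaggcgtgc
NABP2, chr12:56224092-56224324: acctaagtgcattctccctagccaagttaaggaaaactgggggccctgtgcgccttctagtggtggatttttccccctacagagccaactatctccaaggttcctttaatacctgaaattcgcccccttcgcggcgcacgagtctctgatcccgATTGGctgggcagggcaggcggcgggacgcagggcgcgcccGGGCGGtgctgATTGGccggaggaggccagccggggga
INTS3, chr1:153727800-153728049: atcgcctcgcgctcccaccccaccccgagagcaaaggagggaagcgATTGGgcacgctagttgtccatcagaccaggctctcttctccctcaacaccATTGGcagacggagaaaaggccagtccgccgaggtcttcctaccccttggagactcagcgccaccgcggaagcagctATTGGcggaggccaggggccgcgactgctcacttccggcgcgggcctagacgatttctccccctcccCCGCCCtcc

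In the full windows of 300 bases, the CCAAT motif occurred 1 time for NABP1, 2 times for NABP2 and 3 times for INTS3, and the GGGCGG motif 4, 1 and 2 times, counting both strands. Of 35116 windows of that length, 34.6% held CCAAT and 45% held GGGCGG, so each motif alone is common. TATAAA, found in 11.5% of windows, and the AsiSI recognition sequence GCGATCGC, found in 0.208%, were in none of the 3 windows. No motif overlapped another in the printed stretches. The RefSeq start of NABP2 lies 2327 bp inside the span that was counted. GCGATCGC was also in none of the members' 33 annotated transcripts, while transcripts of 235 of 57133 gene names held it, and introns were not searched.

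Library totals ran from 20704611 to 38065726 counts, the lowest being replicate 2 of siINTS11 in U2OS-AsiSI. INTS11, the target of the siRNA, fell in U2OS from 9.69 ± 0.7 to 7.37 ± 0.426 CPM (counts scaled to library size, SD, n = 3; log2 fold change -0.42, SE 0.09, edgeR adjusted p 6.08e-05). In U2OS-AsiSI it went from 10.2 ± 0.736 to 9.28 ± 0.242 CPM (log2 fold change -0.13, SE 0.08, edgeR adjusted p 0.172), a difference that did not pass the threshold of 0.05 and that became 0.06 when library totals alone set the scale. These are counts of newly made RNA over the whole span, introns included. INTS11 mRNA and protein were not measured, so how far the siRNA lowered them is not known here. Below, siINTS11 therefore means the libraries labelled so. Of the osteoblast lineage markers, SPARC (7.55 to 9.47 CPM per kb), COL1A1 (4.12 to 6.45) and RUNX2 (0.442 to 1.33) were well covered in all libraries, ALPL was low and COL1A2 had 2 to 13 reads. Of markers of other cell types, CD3E, ALB and PTPRC had at most 7 reads, CDH5 28 to 103 and EPCAM 108 to 201.

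Per kilobase of span, the order of the 4 genes under siCtrl was NABP1, INIP, NABP2 and INTS3 in both lines. In U2OS with siCtrl NABP1 stood at 4.2 ± 0.0817 CPM per kb (SD, n = 3), INIP at 0.964 ± 0.0792, NABP2 at 0.624 ± 0.0196 and INTS3 at 0.027 ± 0.00776. The level of NABP1 was thus 6.73 times that of its paralog NABP2 and 155 times that of INTS3. INTS3 had only 30 to 46 reads per library, for a reason not tested here. Its ratio is therefore one of counted reads and may not give the ratio of transcription. In U2OS-AsiSI with siINTS11 the middle of the order changed, with NABP2 at 0.878 ± 0.0091 above INIP at 0.757 ± 0.042, and every library of NABP2 (0.869 to 0.887) lay above every library of INIP (0.719 to 0.802).

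**Figure D1:**
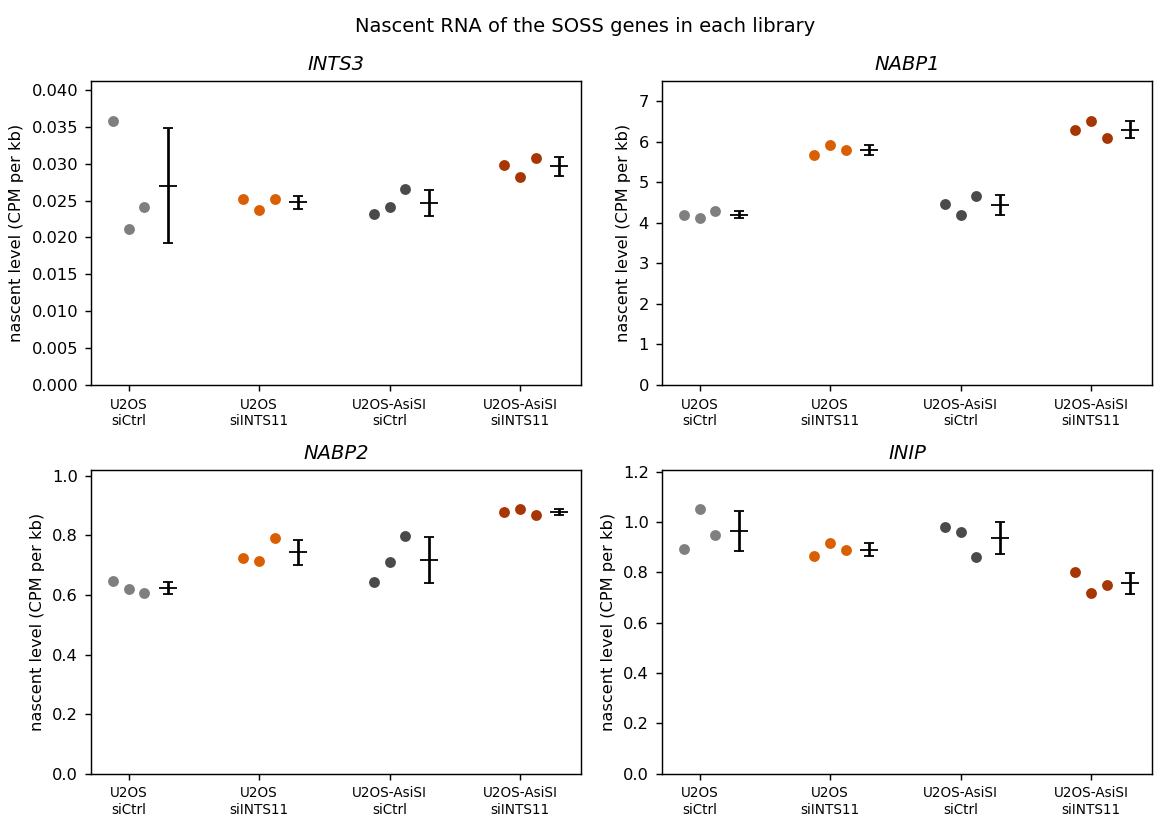
Nascent level in CPM per kb (y axis, from 0, a separate scale for each gene) of INTS3, NABP1, NABP2 and INIP in the 4 groups. Points are single libraries, and the bar beside them is the mean with its SD (n = 3). NABP1 stands higher in all siINTS11 libraries than in all siCtrl libraries, and INTS3 stays near 0.03 throughout.

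INTS3, the scaffold of the trimer, had few reads in every library. Its counts were 46, 35 and 32 in U2OS with siCtrl, 39, 34 and 37 with siINTS11, 32, 36 and 34 in U2OS-AsiSI with siCtrl and 40, 30 and 42 with siINTS11. That is 0.000642 to 0.000984 reads per base, against a median of 0.0247 over the 13705 protein-coding genes above 1 kb that averaged at least 10 reads, of which 8.5% lay below INTS3. NABP1 exceeded 96.6% of these genes, INIP 51.8% and NABP2 46.9%. Overlaps were searched among genes listed as a single span, which leaves out 79 genes listed in 2 or more pieces. Among those searched, INTS3 overlaps on its own strand only SLC27A3, over 455 bp, and SLC27A3 had 0 to 3 reads. The 2 listed genes on the opposite strand inside INTS3, AL513523.5 and AL513523.6, had 0 reads in all libraries. Why INTS3 was so sparse in these tables was not tested, and at some 36 reads per library small changes of it were not detectable.

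The first question was how the siINTS11 libraries differed from siCtrl within each line. In U2OS-AsiSI, 3 of the 4 SOSS genes passed the test, NABP1 and NABP2 higher and INIP lower, where 68% of all 20441 genes passed (35.4% higher and 32.6% lower). In U2OS, NABP1 passed as higher and INIP as lower, where 66.9% of 20687 genes passed (34.5% higher and 32.4% lower). Of all calls, 52.1% were higher in U2OS-AsiSI and 51.6% in U2OS, against 72.4% and 74.3% with library totals alone. The members' count is near this background and is no result in itself.

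NABP1 rose in both lines. In U2OS its levels were 4.19, 4.13 and 4.29 CPM per kb under siCtrl and 5.67, 5.92 and 5.79 under siINTS11. The siCtrl libraries of U2OS-AsiSI had 4.46, 4.19 and 4.67, and its siINTS11 libraries 6.29, 6.52 and 6.09. The groups did not overlap in either line, as in 69.4% of all genes tested in U2OS and 71% in U2OS-AsiSI. The rise was 1.35-fold in U2OS (log2 fold change 0.43, SE 0.04, edgeR adjusted p 8.18e-13) and 1.42-fold in U2OS-AsiSI (0.51, SE 0.05, edgeR adjusted p 9.79e-11), and it passed the threshold under every alternative run. NABP1 is dense in reads (0.115 to 0.188 per base), in a range (0.1 to 0.3) where counts rose with library total inside the groups with a median slope of 0.798 on log scales over 1290 genes, against 1.11 below 0.01 reads per base. Its raw counts differed in the same direction: 2753 reads in the smallest library, replicate 2 of siINTS11 in U2OS-AsiSI, were more than in any siCtrl library of the tables (2140 to 2717).

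NABP2, the other single-strand binding subunit, was higher under siINTS11 by a smaller factor. In U2OS-AsiSI it had 0.645, 0.711 and 0.797 CPM per kb under siCtrl and 0.878, 0.887 and 0.869 under siINTS11. These groups were apart, as in 71% of all genes tested there, the control libraries spreading more than the siINTS11 libraries. NABP2 rose 1.23-fold (log2 value 0.30, SE 0.10, edgeR adjusted p 0.00965). The call was lost in DESeq2 (0.28, adjusted p 0.058) and without siCtrl replicate 1 (0.23, edgeR adjusted p 0.0604). In U2OS NABP2 had 0.646, 0.62 and 0.607 CPM per kb under siCtrl and 0.725, 0.714 and 0.79 under siINTS11. Here too the groups were apart, as in 69.4% of all genes tested there, while the value of 0.22 on the log2 scale (SE 0.10, edgeR adjusted p 0.0519) did not pass. It passed there in 5 of 9 alternatives (0.23 to 0.42, adjusted p 0.000497 to 0.0409) and without siCtrl replicate 1 (0.25, edgeR adjusted p 0.0453). Counts of NABP2 were 135 to 199 per library.

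INIP, the small subunit, went the other way. In U2OS-AsiSI its levels were 0.981, 0.962 and 0.862 CPM per kb under siCtrl and 0.802, 0.719 and 0.75 under siINTS11. They did not overlap, as in 71% of all genes tested there, and the log2 value was -0.30 (SE 0.06, edgeR adjusted p 6.61e-05). The U2OS libraries had 0.894, 1.05 and 0.948 under siCtrl and 0.865, 0.915 and 0.889 under siINTS11. The ranges overlapped in U2OS, and the call there rested on -0.15 (SE 0.06, edgeR adjusted p 0.0156). The fall of INIP is relative to a typical gene: with library totals alone, which move the median of all genes from 0.03 to 0.22 in U2OS-AsiSI and from 0.02 to 0.22 in U2OS, INIP was at -0.11 (adjusted p 0.12) and 0.05 (adjusted p 0.467). In U2OS the call was also lost without siCtrl replicate 2 (-0.07, edgeR adjusted p 0.314) and without siINTS11 replicate 1 (-0.13, edgeR adjusted p 0.0664), as well as when only genes averaging 50 reads or more were fitted (-0.11, adjusted p 0.0813), with libraries thinned to the smallest total (-0.14, adjusted p 0.0515) and with all 12 libraries in 1 fit (-0.12, adjusted p 0.0698).

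INTS3 passed in neither line. In U2OS-AsiSI it had 0.0232, 0.0241 and 0.0266 CPM per kb under siCtrl and 0.0299, 0.0283 and 0.0308 under siINTS11. The libraries were apart, as in 71% of all genes tested there, but the log2 fold change of 0.28 had an SE of 0.19 (edgeR adjusted p 0.198). With library totals alone it passed (0.47, adjusted p 0.0324). In U2OS it had 0.0358, 0.0212 and 0.0241 CPM per kb under siCtrl and 0.0252, 0.0238 and 0.0253 under siINTS11. The value of siCtrl replicate 1 was the highest of all 12 libraries, and the value of -0.13 (SE 0.21, edgeR adjusted p 0.591) became 0.12 without it.

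**Figure D2:**
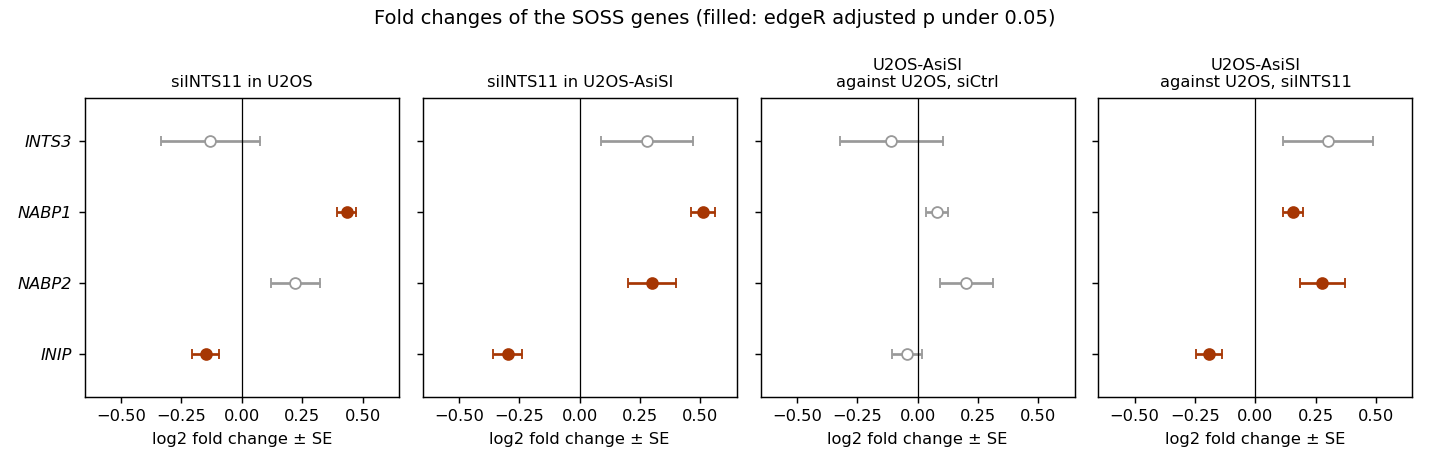
Log2 fold change (x axis, with SE) of the 4 SOSS genes in 4 comparisons, filled where the edgeR adjusted p was under 0.05. NABP1 is above 0 and INIP below 0 for siINTS11 in both lines, and the line comparison under siCtrl has no filled point.

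Genes of like span give the surroundings of these values, since fold changes in these libraries varied with span. Among the 1377 protein-coding genes tested in U2OS-AsiSI with spans of 12.6 to 19.3 kb, the tenth that holds NABP1, the median log2 fold change was 0.08 and the quartiles -0.11 and 0.31, below the 0.51 of NABP1. For the tenth with NABP2 the median was 0.13 (quartiles -0.07 and 0.37), which bracket its 0.30. For the tenth with INIP it was -0.03 (quartiles -0.23 and 0.22), and INIP at -0.30 lay under the lower quartile. For the tenth with INTS3 it was -0.09 (quartiles -0.29 and 0.16), under the 0.28 of INTS3 that did not pass. In U2OS, NABP1 at 0.43 again lay above its upper quartile (0.35), while NABP2 (0.22, quartiles -0.07 and 0.35), INIP (-0.15, quartiles -0.20 and 0.19) and INTS3 (-0.13, quartiles -0.26 and 0.14) lay inside theirs.

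The next question was whether the response differed between the lines. The difference of the siINTS11 effect, U2OS-AsiSI minus U2OS, was 0.04 (SE 0.06, edgeR adjusted p 0.766) for NABP1, 0.04 (SE 0.14, adjusted p 0.906) for NABP2, -0.18 (SE 0.08, adjusted p 0.239) for INIP and 0.37 (SE 0.27, adjusted p 0.493) for INTS3. None of the 4 passed, where 3.87% of 21521 genes did (0.762% higher and 3.1% lower), and for INIP and INTS3 the unadjusted p was 0.0394 and 0.183. DESeq2 gave adjusted p-values to NABP1 (0.622) and INIP (0.451) only. This test scaled all 12 libraries together, and its median over all genes was -0.05, against 0.03 and 0.02 within U2OS-AsiSI and U2OS. Its values need not equal the gap between the within-line fits. Of all calls in this test 19.7% were higher, against 39.6% with median-of-ratios size factors and 29.5% with library totals alone. So the response to siINTS11 was not shown to differ between the lines in any SOSS gene, nor shown to be alike. Leaving out U2OS siCtrl replicate 1 moved the INTS3 value from 0.37 to 0.13, and over all omissions of 1 library NABP1 ran from 0.01 to 0.08 and INIP from -0.25 to -0.11.

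Compared directly under siCtrl, the lines differed in none of the 4 by edgeR, where 34.9% of 19935 genes passed (17.8% higher and 17.2% lower). The log2 differences, U2OS-AsiSI against U2OS, were 0.08 (SE 0.05) for NABP1, 0.20 (SE 0.11) for NABP2, -0.04 (SE 0.06) for INIP and -0.11 (SE 0.21) for INTS3, with edgeR adjusted p from 0.153 to 0.73 and unadjusted p from 0.0725 up. DESeq2 called none of the 3 to which it gave an adjusted p (INTS3 had none), and scaling by library totals alone called NABP1 (0.14, adjusted p 0.015). Under siINTS11, 3 of the 4 passed, where 43.6% of 20802 genes did (22.2% higher and 21.4% lower), and all 4 had libraries that did not overlap, as had 52.9% of genes. NABP1 was higher in U2OS-AsiSI by 0.16 (SE 0.04, edgeR adjusted p 0.00277), NABP2 by 0.28 (SE 0.09, edgeR adjusted p 0.0146), and INIP was lower at -0.19 (SE 0.05, edgeR adjusted p 0.00388). The NABP2 call was lost in DESeq2 (0.27, adjusted p 0.0715) and without U2OS siINTS11 replicate 1 (0.26, edgeR adjusted p 0.0511) or 2 (0.25, edgeR adjusted p 0.0577). INTS3 was at 0.30 (SE 0.19, edgeR adjusted p 0.204). INTS11, the target of the siRNA, was also higher in U2OS-AsiSI under siINTS11 (0.37, SE 0.08, edgeR adjusted p 0.000457). Under siCtrl it was at 0.08 (SE 0.09, edgeR adjusted p 0.513). The comparisons within and between lines share libraries. The share of higher calls between lines moved from 50.9% to 67.4% under siCtrl and from 51% to 62.8% under siINTS11 with library totals alone.

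Across the 4 groups, NABP1 stood from low to high in the order U2OS siCtrl, U2OS-AsiSI siCtrl, U2OS siINTS11 and U2OS-AsiSI siINTS11, and only the 2 siCtrl groups overlapped among neighbours. NABP2 had the same order, and there U2OS siCtrl and U2OS-AsiSI siCtrl touched (highest 0.646, lowest 0.645), while the U2OS siINTS11 libraries (0.714 to 0.79) lay wholly inside the range of U2OS-AsiSI siCtrl (0.645 to 0.797). INIP had the reverse order, with only U2OS-AsiSI siINTS11 apart from the rest. For INTS3 the siINTS11 libraries of U2OS-AsiSI were highest apart from the single U2OS siCtrl library named above.

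Ratios within a library do not depend on how libraries are scaled. NABP1 over NABP2, per kilobase, was 6.49, 6.66 and 7.07 in U2OS with siCtrl and 7.82, 8.3 and 7.33 with siINTS11. In U2OS-AsiSI it was 6.91, 5.89 and 5.85 with siCtrl and 7.16, 7.35 and 7 with siINTS11. In both lines the siINTS11 libraries were above the siCtrl libraries, in U2OS-AsiSI by a narrow gap. Of single genes tested, 69.4% in U2OS and 71% in U2OS-AsiSI had groups apart. The share of gene ratios that separate was not counted, so the separation is no result in itself. The mean log2 ratio went from 2.75 ± 0.063 (SD, n = 3) to 2.96 ± 0.0902 in U2OS. In U2OS-AsiSI it went from 2.63 ± 0.137 to 2.84 ± 0.0346. NABP2 had only 135 to 199 reads per library, and the difference in this ratio was not tested. NABP1 made up 85.4% to 89.3% of the pair in all 12 libraries. The sum of NABP1 and NABP2 over INIP went from a mean log2 ratio of 2.33 ± 0.134 (SD, n = 3) to 2.88 ± 0.0156 in U2OS and from 2.46 ± 0.174 to 3.25 ± 0.107 in U2OS-AsiSI. So the nascent reads of the single-strand binding subunits moved apart from those of INIP in both lines under any scaling. This ratio also moved with library total: on log scales, counts rose with library total inside the groups with a slope of 0.769 for NABP1 and 1.48 for INIP, the highest ratio (3.36) was in the library with the lowest total and the lowest (2.18) in that with the highest. All siINTS11 libraries of U2OS-AsiSI had lower totals (20704611 to 26579035) than its siCtrl libraries (28299433 to 32981069). In U2OS the totals of the groups overlapped (29597323 to 38065726 under siCtrl and 29397678 to 31743963 under siINTS11). The part of library total in the difference was not tested.

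**Figure D3:**
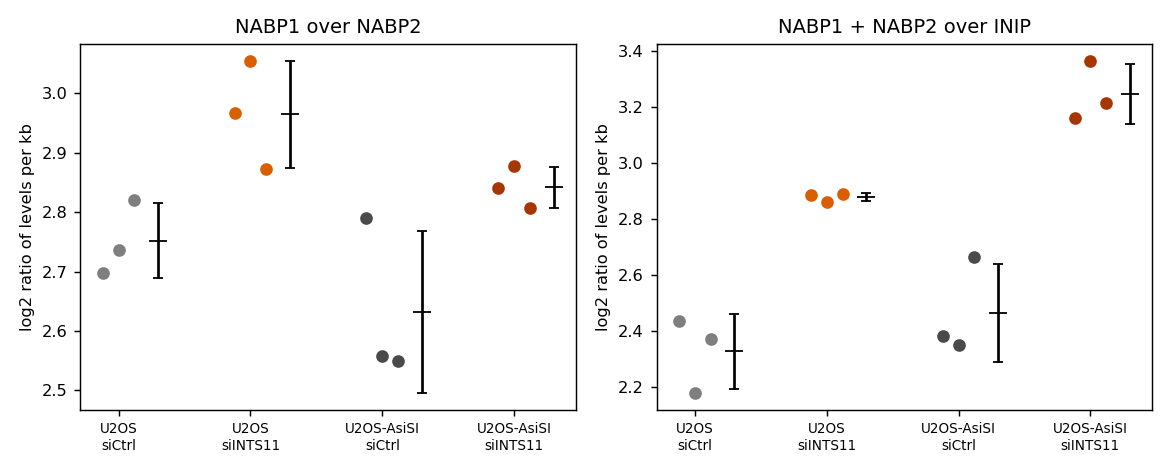
Log2 ratio of levels per kb within each library (y axis, not from 0): NABP1 over NABP2 (left) and their sum over INIP (right), for the 4 groups, with mean and SD (n = 3) beside the points. In both panels and both lines the siINTS11 points lie above the siCtrl points. How often ratios of other genes separate in this way was not counted.

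Genes next to the SOSS genes, among those listed as a single span, were examined in the same fits. AC114778.2, a listed gene on the strand of NABP1, overlaps its last 3467 bp and runs 41930 bp past its end. Its counts were 126, 153 and 123 in U2OS with siCtrl and 325, 306 and 307 with siINTS11. In U2OS-AsiSI they were 119, 112 and 131 against 305, 239 and 283. Every siINTS11 library was above every siCtrl library. Within a line, the groups were apart in 69.4% of all genes tested in U2OS and 71% in U2OS-AsiSI. AC114778.2 rose 2.19-fold in U2OS (log2 fold change 1.13, SE 0.09, edgeR adjusted p 2.85e-14) and 2.52-fold in U2OS-AsiSI (1.33, SE 0.10, edgeR adjusted p 1.18e-12). Reads in the shared stretch can be split or lost between the 2 genes, and whether its reads come from transcription that began at NABP1 was not tested. Another listed gene, AC114778.1, lies inside NABP1 and had 0 reads. CAVIN2, the nearest tested gene downstream at 137645 bp, passed in neither line (-0.33, edgeR adjusted p 0.0601, in U2OS-AsiSI and -0.15, edgeR adjusted p 0.288, in U2OS, the latter 0.05 with library totals alone), but it passed in U2OS-AsiSI with median-of-ratios size factors (-0.35, adjusted p 0.0415).

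RNF41, a ubiquitin ligase gene that starts 81 bp from the counted span of NABP2 on the other strand, was at -0.05 (SE 0.06, edgeR adjusted p 0.422) in U2OS-AsiSI and -0.12 (SE 0.06, edgeR adjusted p 0.0689) in U2OS. It passed in neither line, but with library totals alone turned to 0.14 (adjusted p 0.0444) and 0.08, and with median-of-ratios size factors it passed as lower in U2OS (-0.13, adjusted p 0.0407). ANKRD52, 7952 bp downstream of NABP2 on the other strand, fell by 0.31 in U2OS-AsiSI and 0.50 in U2OS on the log2 scale, and by 0.12 (adjusted p 0.0342) and 0.30 with library totals alone. INIP lies 14528 bp from KIAA1958, which fell by 0.44 in U2OS-AsiSI and 0.41 in U2OS, and 30752 bp from the antisense gene AL390067.1, which had 28 to 54 reads under siCtrl and 78 to 113 under siINTS11 and rose by 1.25 (SE 0.17) and 1.18 (SE 0.17). ILF2 and GATAD2B flank INTS3. ILF2 did not pass in either line (0.06 in U2OS-AsiSI and -0.06 in U2OS, edgeR adjusted p 0.302 and 0.22) but passed as higher in both with library totals alone (0.25 and 0.14), and GATAD2B was at -0.25 and -0.19, past the threshold in both and at -0.06 and 0.00 with library totals alone, where it passed in neither. ILF2 and GATAD2B had at least 1258 and 2174 reads in every library, against 30 to 46 for INTS3.

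**Figure D4:**
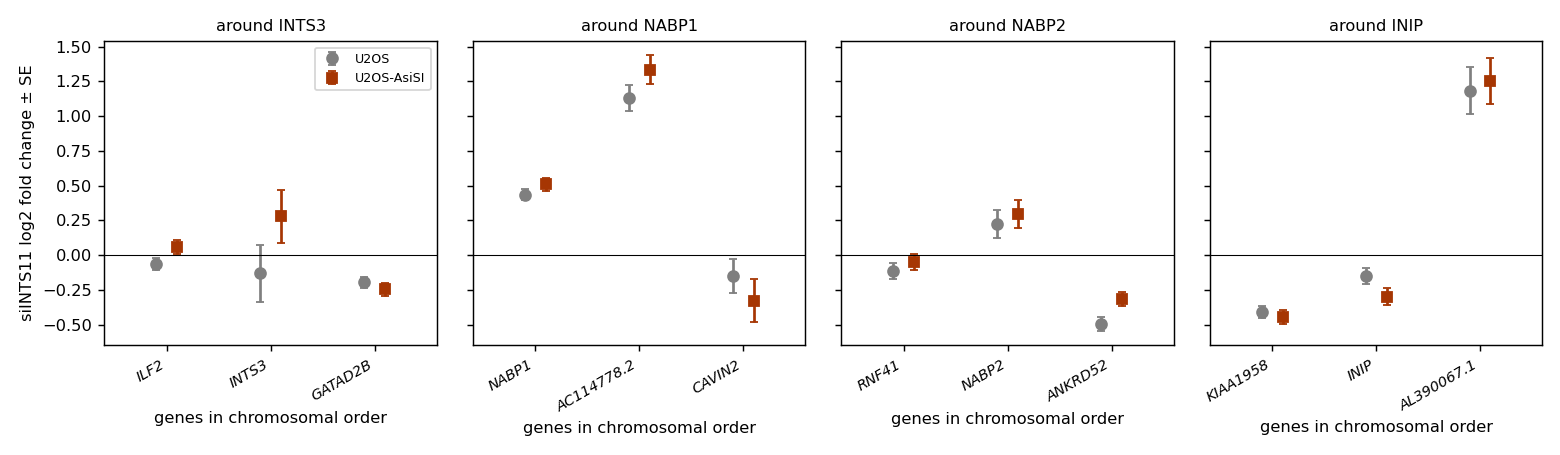
Log2 fold change under siINTS11 (y axis, with SE) of each SOSS gene and the tested neighbours named in the text, in chromosomal order, for U2OS (circles) and U2OS-AsiSI (squares). AC114778.2 and AL390067.1 stand above 1 in both lines, and the other neighbours lie between -0.50 and 0.06.

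Other genes that act on single-stranded DNA or belong to Integrator were counted by list. The counts stand against shares over all genes of 35.4% higher and 32.6% lower in U2OS-AsiSI and 34.5% and 32.4% in U2OS, with medians of 0.03 and 0.02. Calls also varied with span. In U2OS-AsiSI, 41.2% of protein-coding genes of 6.84 to 12.6 kb were higher and 15.3% lower. Of those of 39.2 to 54 kb, 24% were higher and 43.1% lower. The lists were not matched for span, and its part in their counts was not tested. Of 14 tested genes for single-strand DNA binding proteins, 4 rose and 9 fell in U2OS-AsiSI (median log2 fold change -0.13), and 4 rose and 7 fell in U2OS (-0.10), while with library totals alone the counts were 6 and 3, and 7 and 4. RPA1 and RPA2, the large and middle subunits of the general single-strand binding factor RPA, were at -0.14 (edgeR adjusted p 0.0129) and -0.13 (0.023) in U2OS-AsiSI, values that turned to 0.05 and 0.06 with library totals alone. RPA3 was at 0.07 (edgeR adjusted p 0.329) in U2OS-AsiSI. With library totals alone it passed as higher in both lines (0.26, adjusted p 0.00143, in U2OS-AsiSI and 0.22, adjusted p 0.00936, in U2OS). Both STN1 (0.86 in U2OS-AsiSI and 0.91 in U2OS) and POT1 (-0.57 and -0.45), which bind single-stranded telomeric DNA, kept their directions under that scaling. SSBP1, the mitochondrial single-strand binding protein, fell by 0.55 and 0.37, and SSBP2 by 1.18 and 1.07. SSBP3 rose by 0.27 and 0.16. MEIOB, a meiotic OB-fold protein that had 17 to 27 reads per library under siCtrl and 67 to 134 under siINTS11, rose by 1.85 (SE 0.19) and 2.29 (SE 0.18). TEN1 had 0 reads and was not tested.

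Of 12 tested genes for break end sensing and resection, 1 rose and 10 fell in U2OS-AsiSI (median -0.24) and 1 rose and 8 fell in U2OS (-0.23), against 1 and 4, and 3 and 3, with library totals alone. BRIP1, a helicase that works with BRCA1, was at -0.55 (SE 0.05) in U2OS-AsiSI and -0.53 (SE 0.05) in U2OS. The RecQ helicases BLM (-0.33 and -0.38) and WRN (-0.41 and -0.26), and the resection nucleases DNA2 (-0.30 and -0.27) and EXO1 (-0.28 and -0.34), also passed in both lines. Each of these 5 kept its sign with library totals alone, EXO1 without passing in U2OS-AsiSI and WRN and DNA2 without passing in U2OS. RMI2, a partner of BLM, was the gene that rose, by 0.35 and 0.26. RAD50, with 1 to 6 reads in every library, was not tested.

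Among genes of single-strand DNA signalling, RAD9A, part of the checkpoint clamp, rose by 0.55 in U2OS-AsiSI and 0.47 in U2OS, also with library totals alone. TOPBP1 (-0.33 in both lines), ETAA1 (-0.33 and -0.24), ATR (-0.29 and -0.14) and BRCA2 (-0.21 and -0.16) passed as lower. With library totals alone TOPBP1 passed in both lines (-0.14 and -0.13), ATR (-0.10) and ETAA1 (-0.14) passed in U2OS-AsiSI but not in U2OS (0.06 and -0.04), and BRCA2 passed in neither (-0.02 and 0.04).

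Of 15 other Integrator subunits, 5 rose and 6 fell in U2OS-AsiSI (median -0.05) and 6 rose and 6 fell in U2OS (-0.05), against 8 and 0, and 10 and 1, with library totals alone. INTS11, the target of the siRNA, is among these 15 and is 1 of the 6 lower calls in U2OS. INTS6, the subunit through which INTS3 is known to join Integrator, rose by 0.29 (SE 0.05) and 0.20 (SE 0.04), and its paralog INTS6L by 0.24 and 0.25. C7orf26, now called INTS15, rose by 0.51 and 0.49, INTS5 by 0.46 and 0.34 and INTS13 by 0.27 and 0.50. INTS8 (-0.29 and -0.18) and INTS12 (-0.25 and -0.16) passed as lower. With library totals alone both lost their calls in U2OS-AsiSI (-0.10 and -0.06) and turned in U2OS (0.02 and 0.04). Over all 4 lists, the test of the difference between lines, which called 3.87% of all genes, called 1 gene, INTS13 (-0.26, SE 0.07, edgeR adjusted p 0.0204), which was higher under siINTS11 in both lines and by more in U2OS.

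**Figure D5:**
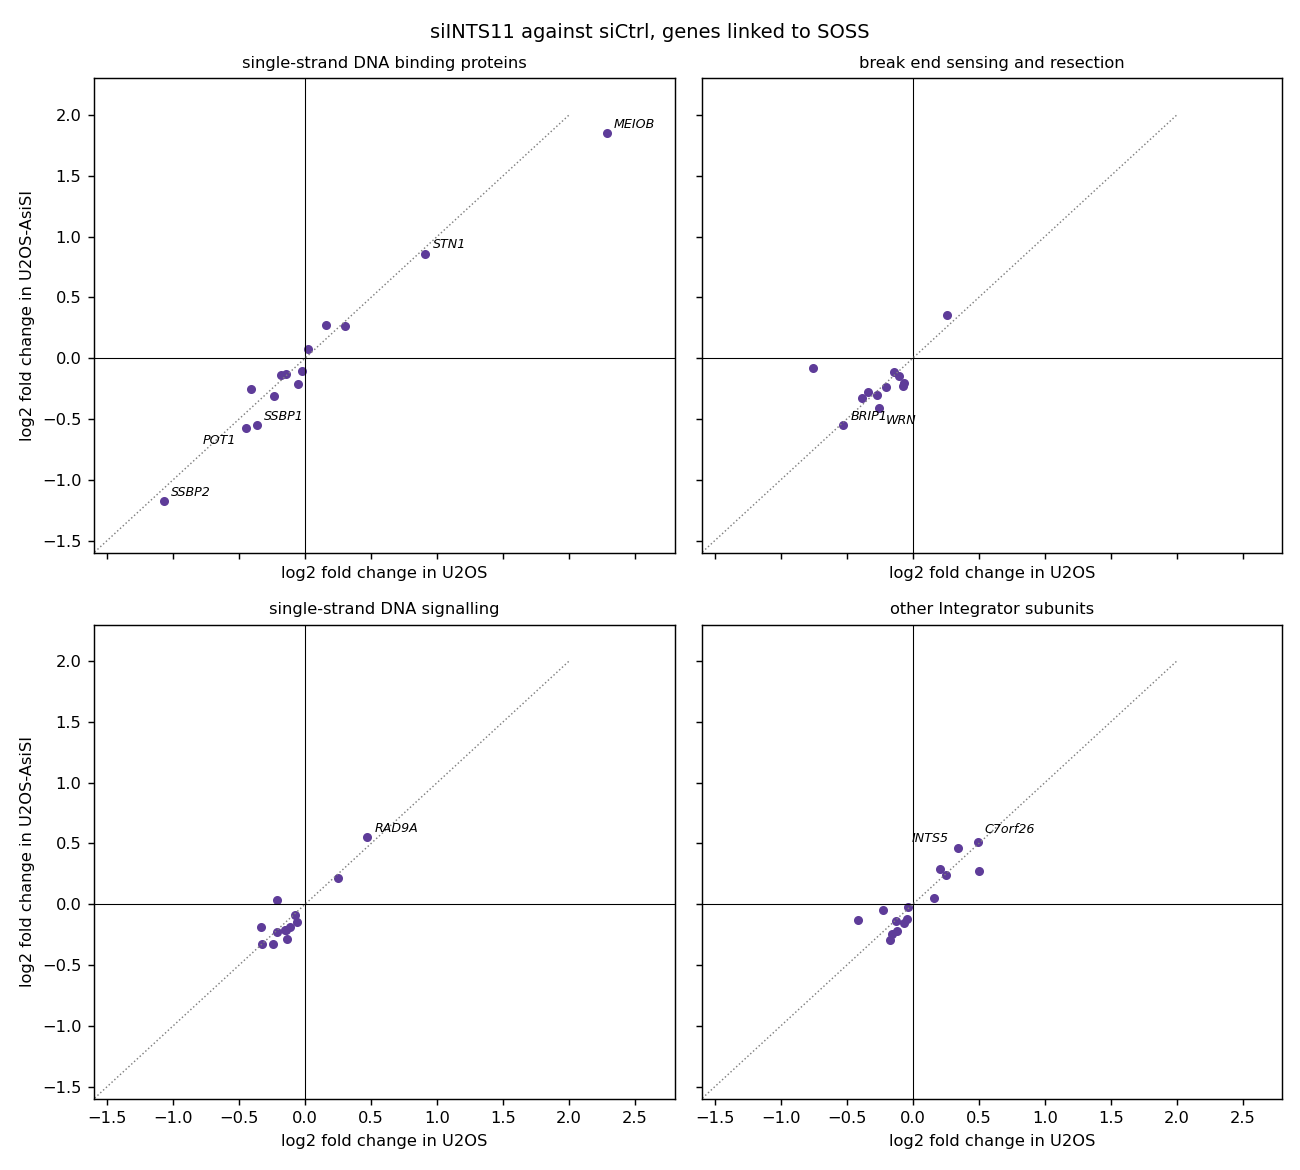
Log2 fold change under siINTS11 in U2OS (x axis) against U2OS-AsiSI (y axis) for genes of 4 lists, each point a gene, the dotted line marking equal values and names given where the U2OS-AsiSI value is beyond 0.4 either way. The 2 lines share no libraries; MEIOB, STN1 and SSBP2 lie farthest from 0 in both.

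The genes whose log2 CPM followed a SOSS gene most closely over the 12 libraries were named by Pearson's r, as a description, since libraries of a group share their treatment and line. For NABP1 they were AC078923.1 (r 1.00), ASAP2 (0.99) and AC009154.1 (0.99), which rose under siINTS11 by 1.07, 0.82 and 1.79 in U2OS-AsiSI. For NABP2 they were DNASE1L1 (0.97), NUDC (0.96) and JAGN1 (0.96), for INIP MKRN2 (0.97), SPIN3 (0.97) and AC015813.6 (0.96), and for INTS3, with its few reads, SCRIB (0.89), BX537318.1 (0.82) and CLPTM1L (0.78). Among the members, NABP1 and NABP2 had r 0.83, and INIP ran against both (-0.80 with NABP1 and -0.88 with NABP2).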

How the data were processed

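As deposited, the authors' tables give unnormalized counts of reads for each gene symbol, with coordinates and span length in the featureCounts layout per the file headers. Each table has 2 count columns, 1 per line, matched to samples by name, and 0 columns were left without a sample. The submitters' processing notes name Trimmomatic 0.36, STAR 2.7, featureCounts, deepTools and hg38. The annotation release, strand setting and duplicate handling are not given in the sources used here. Of 55454 symbols also in GENCODE release 29, 75% had the same coordinates.

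The test was edgeR's quasi-likelihood test (version 4.0.16, R 4.3.3; filterByExpr, TMM scaling, glmQLFit with robust estimation, glmQLFTest, two-sided) on the 6 libraries compared, or on 12 with the interaction of siRNA and line, with Benjamini-Hochberg adjustment over all genes tested and a threshold of 0.05. SE was taken as the size of the log2 value divided by the root of its F statistic. Levels are CPM scaled by TMM over 12 libraries, per kb of span. The code was tested on simulated counts. For siINTS11 in U2OS-AsiSI it called 93.7% of 2-fold and 68.8% of 1.5-fold changes, and 7.19% of its calls were false. For siINTS11 in U2OS these shares were 89.7%, 76.3% and 6.4%. Changes under 1.5-fold were not simulated. The simulation changed a small share of genes, as many up as down, while in the data 68% of genes passed in U2OS-AsiSI and 66.9% in U2OS. Its shares therefore describe the code in that setting and need not hold for these comparisons. DESeq2 1.42.0 and other scalings, filters and library sets were alternatives.

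Replicates were not copies of each other (chi-square per degree of freedom 1.93 to 3.28), so each counted as a sample. The labels do not say that replicates were separate cultures, so p-values measure the spread between these libraries, which may be technical. No batch is named. Labelled yeast RNA was added as a spike-in, per the labels' protocols, but the tables list 0 yeast genes, so all changes are relative to the other genes. The members and lists were chosen with earlier results of these data known. Named genes are the members, INTS11, overlapping genes and the nearest tested gene on each side, the 3 genes with the highest r per member (mean count at least 100), and up to 6 genes per list with the smallest adjusted p in U2OS-AsiSI, besides RPA1, RPA2, RPA3, INTS6L, TEN1 and RAD50, which were added for their role or their low counts after values were seen. Some genes that this rule covers are not reported here.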

Additional observations from a re-analysis of the deposited data

How the results depend on the processing

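Of 210 values for the members and for counts of genes past the threshold, over alternatives other than leaving out a library, 188 kept their direction and side of the threshold (counts within 1.5 times). NABP1 under siINTS11 kept its call in both lines throughout, at 0.49 to 0.70 in U2OS-AsiSI and 0.42 to 0.63 in U2OS, and had no value when only genes under 0.1 reads per base were fitted. INTS3 had none with a mean count of at least 50. With library totals alone INTS3 passed in U2OS-AsiSI (0.47) and turned to 0.068 in U2OS, NABP2 passed in U2OS (0.42), INIP lost its call in U2OS-AsiSI (-0.11) and turned in U2OS (0.0496), and between lines under siCtrl NABP1 passed (0.14) and INIP turned (0.0128). In U2OS a mean count of at least 50, thinning and a fit of all 12 libraries called NABP2 (0.26, 0.29 and 0.25) and lost INIP (-0.11, -0.14 and -0.12), fitting genes under 0.1 reads per base called NABP2 (0.23), and thinning turned INTS3 (0.0616). Thinning also turned the line difference of NABP2 (-0.0292). DESeq2 lost NABP2 for siINTS11 in U2OS-AsiSI (0.28) and between lines under siINTS11 (0.27). Genes differing between lines in their response numbered 832, against 447 with median-of-ratios size factors, 423 in DESeq2 and 531 when thinned. The causes were not tested.

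Leaving out 1 library gave these ranges for siINTS11 in U2OS-AsiSI: NABP2 0.23 to 0.37. In U2OS they were -0.29 to 0.12 for INTS3, 0.17 to 0.25 for NABP2 and -0.195 to -0.0691 for INIP. The line difference ran from -0.0288 to 0.118 for NABP2, 0.134 to 0.544 for INTS3, 0.0114 to 0.0836 for NABP1 and -0.252 to -0.113 for INIP, with 286 to 946 genes called, and 9 of the 12 omissions moved that count by over 1.5 times. Between lines they were -0.27 to 0.14 for INTS3 and -0.0887 to 0.0302 for INIP under siCtrl, and 0.25 to 0.32 for NABP2 under siINTS11. Same-numbered replicates correlated between -0.34 and 0.45 in their deviations, so the numbers were not taken to pair the samples; the replicate block gave 531 genes for the line difference and changed no call of a member (NABP1 0.51, NABP2 0.30 and INIP -0.30 in U2OS-AsiSI). The low counts of INTS3 limit what can be said of it.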
